A study of Bos taurus with 30 samples.

Results

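The comparison set 4 cows which had both purulent vaginal discharge (PVD) and cytological endometritis (CYTO) at 21 days postpartum (DPP) against 5 cows which were healthy at 21 DPP although their uterus had been inflamed at 7 DPP. These were 9 of the 30 cows of the series, and every library came from cells collected at 7 DPP, before the diagnosis. The PVD with CYTO cows were s1239, s1829, s2161 and s2202, and the inflamed healthy cows were s1066, s1570, s1831, s2053 and s2392. Values by cow are given in this order. The cows were chosen by number, and the clinical cow s2672 was left out because it is outside the set of cows that the study analysed. The labels call the 2 groups clinical and healthy only, and the finer classes follow the cow numbers of the comparison. The other 21 libraries were 5 healthy cows without inflammation at 7 DPP, 10 sub-clinical cows and 6 further clinical cows including s2672. All cows were mixed-parity Holstein-Friesians of a single commercial herd, calved indoors, and neither the labels nor the methods name a treatment. In PVD the vaginal mucus was mostly purulent or muco-purulent, and in CYTO the share of polymorphonuclear neutrophils (PMN) among the cells of a uterine smear was above the cut-off of the study. The 5 inflamed healthy cows had passed that cut-off at 7 DPP and were below it at 21 DPP. The question was which transcripts at 7 DPP separated cows whose inflammation resolved from cows which had PVD with CYTO at 21 DPP. The latter were grouped by their diagnosis at 21 DPP, and their PMN share at 7 DPP is not given here.

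After calving the bovine uterus sheds the caruncles to which the placenta was attached, and bacteria enter the open lumen. Neutrophils move into the endometrium, engulf bacteria and tissue debris and draw in more cells through interleukin 1, interleukin 8 and related signals, after which macrophages clear the dying neutrophils and stroma and epithelium are rebuilt. Some inflammation is therefore part of normal involution. A cytobrush rolled along the uterine wall takes up a mixture of leukocytes, epithelium and exposed stroma, so that in these libraries fewer cells of a type and less RNA per cell cannot be told apart. The PVD with CYTO group joins 2 diagnoses, whose separate parts cannot be told apart here either.

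Levels are deposited CPM values, that is, reads of a gene scaled to the counted reads of its library. Counted reads per library were 17609336 to 25347823 in PVD with CYTO cows and 11922966 to 23493992 in inflamed healthy cows, and the difference of the means had p = 0.143 in an exact two-sided permutation test of the 9 cows, whose smallest possible p is 0.0159. A single read was worth 0.0395 to 0.0839 CPM. Of the cell type markers looked for, the tables used here list 6 of 9 for neutrophils, 7 of 7 for macrophages, 1 of 3 for T cells, 0 of 4 for B cells, 6 of 6 for epithelium, 5 of 5 for stroma and 0 of 3 for erythrocytes. Summed epithelial markers were at 320 to 987 CPM in PVD with CYTO cows and 386 to 1097 CPM in inflamed healthy cows, and summed stromal markers at 4127 to 8545 CPM in PVD with CYTO cows and 7105 to 24062 CPM in inflamed healthy cows, and both sums overlapped between the groups. In the 5 healthy cows without inflammation the epithelial sum was 483 to 5211 CPM and the stromal sum 114 to 6850 CPM. Which libraries were sequenced in the same pool is not given in the sources used here, and pools could not be modelled.

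Cow s1239 stood apart from the other 8. It had the highest value of the 9 cows in 1097 of 10423 genes (10.5%) and the lowest in 6391 (61.3%). Its 10 most abundant genes took 16.8% of all CPM, against 7.98% to 13.5% in the other PVD with CYTO cows and 7.28% to 11.2% in the inflamed healthy cows, and the gene with its highest CPM was IL1RN. On the first principal component, which held 54.1% of the variance, s1239 was at 149, s2161 at 41.4, s2202 at -24.0 and s1829 at -38.9, against 23.8 for the inflamed healthy cow s1570 and -49.2 to -30.5 for the other 4. The group means of that component were 31.9 ± 85.6 (SD, n = 4) in PVD with CYTO and -25.5 ± 28.5 (SD, n = 5) in inflamed healthy cows, with an exact two-sided permutation p = 0.159, and p = 0.357 without s1239. Cows s2161 and s1570, from different groups, lay side by side, as did s1829 and s1066. The TMM scaling factor, by which a library is corrected for a few transcripts that take a large part of its reads, was 0.484 for s1239 and 0.925 to 1.17 for the other 8 cows. The median log2 fold change over all genes was -0.36 in CPM. It was -0.02 with TMM scaling factors and -0.06 without s1239, and the medians of gene lists are given beside these.

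**Figure D1:**
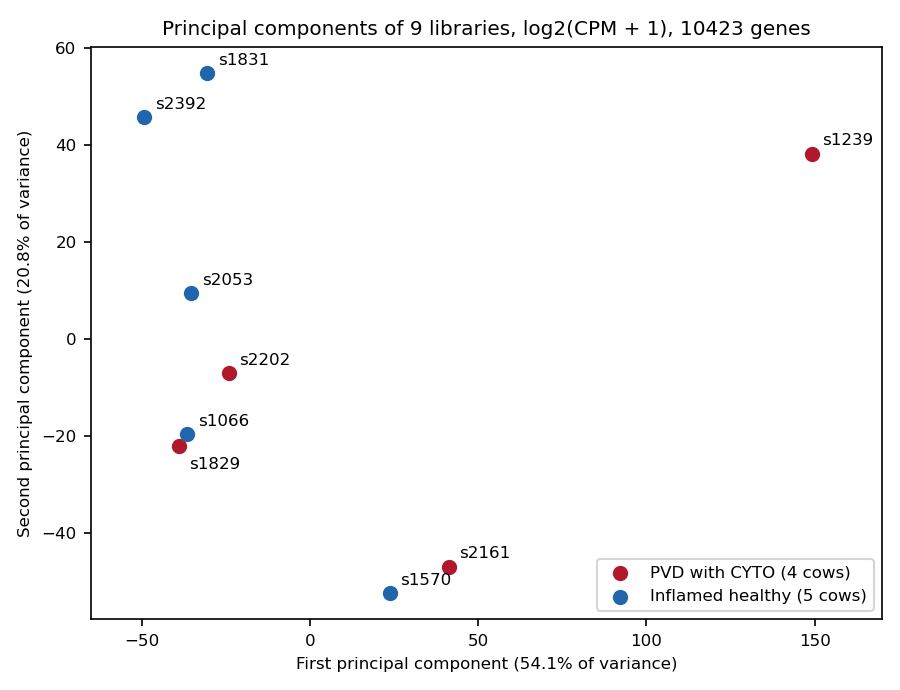
Scores of the 9 libraries on the first (54.1% of variance) and second (20.8%) principal components of log2(CPM + 1) over 10423 genes, with PVD with CYTO cows in red and inflamed healthy cows in blue. Cow s1239 lies at 149 on the first component, away from the other 8, and s2161 lies beside the inflamed healthy cow s1570.

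Across the 10423 genes tested, no gene passed the threshold, which asked for an adjusted p below 0.05 together with a difference of more than 1 on the log2 scale. limma called 0 genes with all 9 cows (0% of genes tested) and 0 without s1239. At an unadjusted p under 0.05 there were 38 genes with a higher mean (0.365%) and 132 with a lower mean (1.27%) in PVD with CYTO, and 18 (0.173%) and 69 (0.662%) without s1239. With TMM factors, 35 had a higher and 53 a lower mean at that level. edgeR also called 0 genes with and without s1239, with 500 higher and 93 lower at an unadjusted p under 0.05 for all 9 cows. The likelihood ratio test of DESeq2 called 2 genes in each case, SFRP4 with ENSBTAG00000039995 for all 9 cows and SFRP4 with TMEM26 without s1239. Levels of the 4 cows lay wholly above those of the 5 inflamed healthy cows for 3 genes (0.0288%) and wholly below for 24 genes (0.23%). A random split of the 9 cows into 4 and 5 sets a gene apart, on either side, with a probability of 0.0159. Both shares were below that, so non-overlap alone does not mark these genes out. Leaving out a cow can only keep or raise these counts of genes set apart. They rose most without s1570, to 494 genes wholly below and 77 wholly above. Without each of the other cows in turn 30 to 151 were below and 3 to 32 above. Without s1239 there were 40 below (0.384%) and 13 above (0.125%), where the probability under a random split is 0.0357. With RLE scaling factors, 9 genes were wholly below and 12 wholly above, and 5 and 2 of them were also so in CPM. Of the genes described next as not overlapping in CPM with all 9 cows, SFRP4, RSPO1, TMEM26, IGSF10, MCEMP1 and ENSBTAG00000039995 stayed apart with RLE factors, and the ranges of all the others overlapped.

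SFRP4, a secreted Wnt antagonist of the endometrial stroma, had the smallest p of all genes. It was at 15.4, 29.7, 13.7 and 20.8 CPM in the PVD with CYTO cows, against 78.9, 112, 130.2, 95.2 and 103 CPM in the inflamed healthy cows. The highest PVD with CYTO cow, s1829, was below the lowest inflamed healthy cow, s1066, and s1239 was inside the range of its group. The log2 fold change was -2.37 (standard error 0.32), lower in 4 of 4 cows, and limma gave an unadjusted p = 9.21e-06 and an adjusted p = 0.096, which misses the threshold. The adjusted p ranged over the alternatives from 1.52e-05 to 0.585, and DESeq2 and limma with library quality weights called the gene, with log2 fold changes of -1.99 and -2.08. Without s1239 it was -2.27 with a standard error of 0.28 and an adjusted p = 0.185 in limma. In the 5 healthy cows without inflammation SFRP4 spanned 0.118 to 128 CPM, with a median of 0.392 CPM. Most of these healthy cows were therefore below every PVD with CYTO cow. RSPO1, a secreted activator of Wnt signalling that was chosen after its values were seen, was also wholly lower, at 0.303, 1.62, 0.555 and 1.704 CPM in the PVD with CYTO cows, against 2.77, 2.02, 1.93, 9.96 and 4.46 CPM in the inflamed healthy cows. These are low levels, with all PVD with CYTO cows below 2 CPM.

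Several other genes were lower in every PVD with CYTO cow, though each had an adjusted p of 0.697 in limma, the next smallest over all genes. TMEM26, a membrane protein, was at 0.389, 10.7, 6.74 and 9.14 CPM in the PVD with CYTO cows, against 18.5, 17.5, 25.2, 26.8 and 24.9 CPM in the inflamed healthy cows. The gap was widest for s1239, and without that cow the log2 fold change was -1.26 against -1.96 with it; DESeq2 called the gene without s1239. GCLC, the catalytic subunit of the enzyme that begins glutathione synthesis, was at 52.3, 40.4, 58.1 and 55.8 CPM in the PVD with CYTO cows, against 67.7, 102, 120.1, 177 and 136 CPM in the inflamed healthy cows. It averaged 51.6 ± 7.85 CPM (SD, n = 4) in PVD with CYTO cows and 121 ± 40.7 CPM (SD, n = 5) in inflamed healthy cows, a log2 fold change of -1.15 (standard error 0.33, unadjusted p = 0.00473), and of -1.16 without s1239.

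PTN, the growth factor pleiotrophin, was at 2.51, 0.671, 1.51 and 2.67 CPM in the PVD with CYTO cows, against 3.06, 5.24, 246, 66.6 and 164 CPM in the inflamed healthy cows. Its spread among the inflamed healthy cows was wide, with s1066 and s1570 close to the PVD with CYTO cows and s1831, s2053 and s2392 far above them. The same 3 healthy cows were the highest for SFRP2, another secreted Wnt antagonist, named here after its values were seen, which was at 4.76, 0.316, 0.912 and 1.08 CPM in the PVD with CYTO cows, against 1.57, 2.02, 45.7, 7.31 and 34.8 CPM in the inflamed healthy cows. IGSF10, a secreted immunoglobulin domain protein, was at 0.692, 4.81, 0.833 and 4.202 CPM in the PVD with CYTO cows, against 8.39, 5.04, 6.96, 15.1 and 20.7 CPM in the inflamed healthy cows. s1829 and s2202 reached almost to the lowest healthy cow, s1570, and s1239 and s2161 were below 1 CPM.

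TIMP2, an inhibitor of matrix metalloproteinases, was at 283, 273, 269 and 317 CPM in the PVD with CYTO cows, against 362, 504, 373, 378 and 472 CPM in the inflamed healthy cows. The groups did not overlap in CPM but were close, with a log2 fold change of -0.54 that was smaller than those above and came to -0.18 with TMM factors. TMEM106B, a protein of the lysosomal membrane, was at 7.18, 23.1, 20.8 and 17.4 CPM in the PVD with CYTO cows, against 31.8, 26.2, 44.1, 25.5 and 33.7 CPM in the inflamed healthy cows. Other genes of this kind were TSTD1, a sulfurtransferase, CINP, a partner of cyclin-dependent kinases, ENDOD1, an endonuclease-like protein, QRSL1, which helps charge mitochondrial transfer RNA, DCXR, a carbonyl reductase, TMEM242, a mitochondrial assembly protein, and CFAP20, a protein of cilia. Their log2 fold changes lay between -0.81 for QRSL1 and -0.53 for DCXR. With TMM factors they came to between -0.48 for QRSL1 and -0.18 for DCXR, and TSTD1, at 13.3, 7.06, 10.2 and 7.78 CPM in the PVD with CYTO cows, against 13.9, 14.1, 19.7, 16.1 and 13.5 CPM in the inflamed healthy cows, was separated by less than 0.2 CPM. Cow s1239 was the lowest of the 9 for TMEM106B, CINP, ENDOD1, QRSL1, DCXR, TMEM242 and CFAP20, but not for TSTD1.

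Only 3 genes were higher in every PVD with CYTO cow. CAPN3, a calcium-dependent protease best known from skeletal muscle, was at 36.7, 3.47, 4.602 and 19.8 CPM in the PVD with CYTO cows, against 2.47, 3.43, 1.34, 0.812 and 0.863 CPM in the inflamed healthy cows. s1239 and s2202 were well above the others, while s1829 exceeded the highest healthy cow, s1570, only narrowly, and the log2 fold change was 2.18 (standard error 0.65, unadjusted p = 0.00577) or 1.62 without s1239. MCEMP1, a membrane protein of myeloid and mast cells, was at 233, 1.81, 6.705 and 2.73 CPM in the PVD with CYTO cows, against 0.766, 1.14, 1.51, 1.68 and 0.2397 CPM in the inflamed healthy cows. Its log2 fold change of 2.56 came down to 1.12 without s1239, which held most of the transcript. The third, ENSBTAG00000039995, which has no symbol in the tables, was at 3.202, 1.54, 12.9 and 6.701 CPM in the PVD with CYTO cows, against 0.426, 0.739, 1.26, 0.866 and 0.0959 CPM in the inflamed healthy cows, and DESeq2 called it with all 9 cows. It was chosen after its values were seen.

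**Figure D2:**
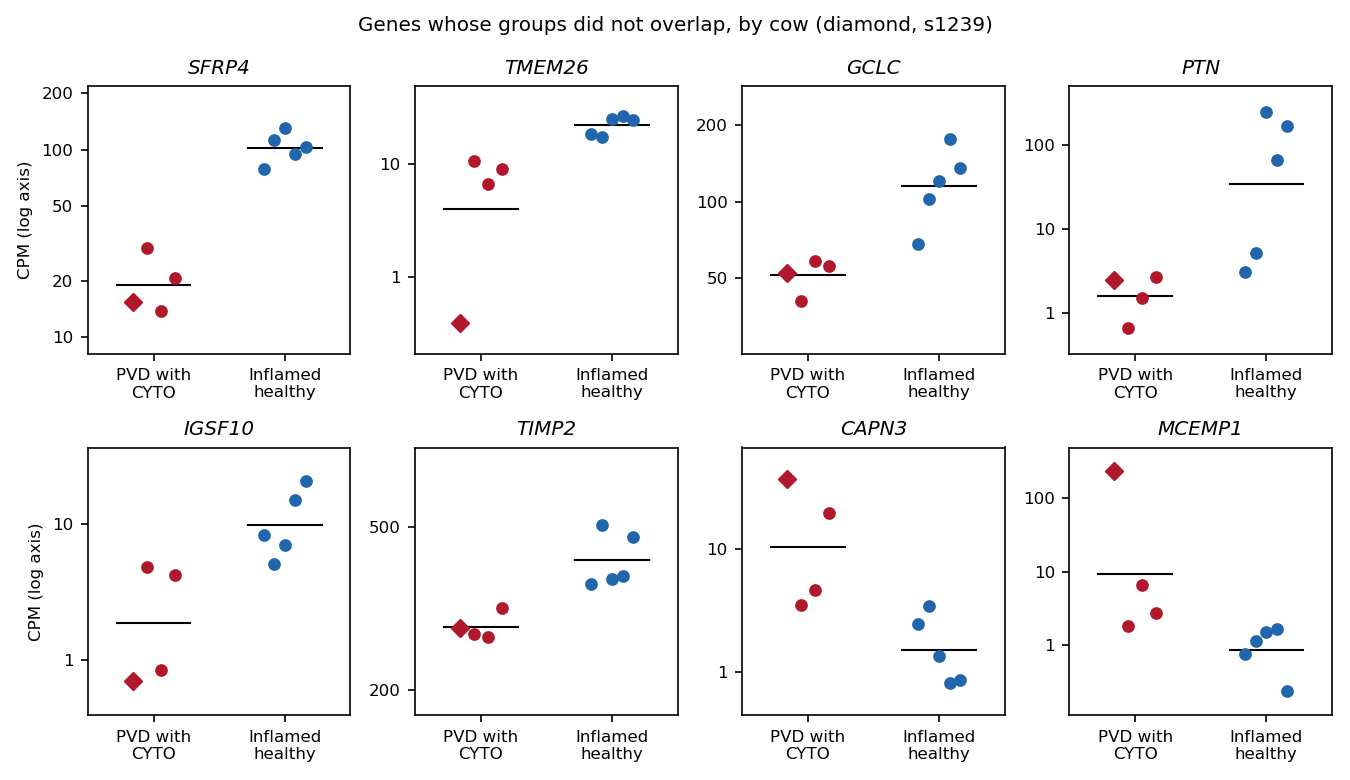
CPM by cow on log axes for 8 genes whose groups did not overlap, PVD with CYTO on the left and inflamed healthy on the right of each panel; bars are geometric means and diamonds mark s1239. The 6 lower genes run from SFRP4, at 13.7 to 29.7 CPM against 78.9 to 130 CPM, to TIMP2, where the gap is narrow, and CAPN3 and MCEMP1 are higher.

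Neutrophil transcripts had higher means in PVD with CYTO cows. All 16 tested genes of the neutrophil list had a positive fold change, where 20.5% of all genes did, and the median log2 fold change was 1.73; none was called and 3 had an unadjusted p under 0.05. Without s1239, 15 of 16 were positive, where 39.3% of all genes were, with a median of 0.86. S100A12, an alarmin that neutrophils hold in large amounts, was at 12922, 403, 5244 and 697 CPM in the PVD with CYTO cows, against 479.5, 3679.6, 1633, 371 and 172 CPM in the inflamed healthy cows. S100A9, which forms calprotectin with S100A8, was at 6809, 102, 710.2 and 110.2 CPM in the PVD with CYTO cows, against 65.04, 421, 163, 50.7 and 16.8 CPM in the inflamed healthy cows. In both, s1239 was the highest, s2161 and the healthy cow s1570 came next, and s1829 and s2202 lay within the range of the healthy cows. Taken over the 16 genes, the mean log2 level was 9.34, 5.11, 6.94 and 5.53 in the PVD with CYTO cows, against 5.01, 6.72, 4.78, 4.99 and 3.59 in the inflamed healthy cows. The summed level of 6 neutrophil markers was 26103, 651, 6942 and 1036 CPM in the PVD with CYTO cows, against 676, 4962, 2124, 529.9 and 226 CPM in the inflamed healthy cows. In healthy cows without inflammation it was 117 to 596 CPM, so that s2053 and s2392, although classed as inflamed by cytology, did not exceed that range.

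Genes of the interleukin 1 system followed the same cows. All 18 tested genes were positive with all 9 cows (median 1.13) and 15 of 18 without s1239 (median 0.53), and 0 were called. IL1B, the secreted cytokine that starts much of the acute response, was at 19674, 66.002, 454 and 255 CPM in the PVD with CYTO cows, against 46.9, 714, 38.9, 66.5 and 6.999 CPM in the inflamed healthy cows. s1239 was far above all, and the second highest was the healthy cow s1570. The log2 fold change was 3.40 (standard error 1.51, unadjusted p = 0.0444), and 1.74 without s1239 (p = 0.196). IL1RN, the natural antagonist of the interleukin 1 receptor, was at 27520.4, 773, 5708 and 1662 CPM in the PVD with CYTO cows, against 1035, 6017, 223, 1082 and 82.4 CPM in the inflamed healthy cows. Its order of cows resembled that of IL1B. NLRC4, a sensor that builds an inflammasome, was chosen after its values were seen; its unadjusted p was under 0.05 both with s1239 (log2 fold change 1.20) and without it (0.72), at 73.9, 15.6, 22.2 and 19.9 CPM in the PVD with CYTO cows, against 13.02, 7.53, 17.4, 12.5 and 7.96 CPM in the inflamed healthy cows.

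The chemokine IL-8, which recruits neutrophils, was at 26684, 170.2, 3559.7 and 660.4 CPM in the PVD with CYTO cows, against 235, 2095, 146, 239 and 22.9 CPM in the inflamed healthy cows. s1239 and s2161 were above every healthy cow, and s1829 was below s1066, s1570 and s2053. The platelet chemokine PPBP and the mucosal chemokine CXCL17 were the other members tested of the neutrophil-recruiting list; PPBP was at 0.738 to 41.5 CPM in PVD with CYTO cows and 0.144 to 29.03 CPM in inflamed healthy cows. Of 13 chemokines for mononuclear cells 8 were positive with all cows and 9 without s1239 (medians 0.61 and 0.27). Among them CCL2, which attracts monocytes, was at 468, 83.95, 756 and 67.98 CPM in the PVD with CYTO cows, against 179, 1148, 53.3, 114 and 12.9 CPM in the inflamed healthy cows, highest in the healthy cow s1570. CXCL14, a chemokine made by stroma and epithelium, was at 7.18, 479.7, 64.7 and 1023 CPM in the PVD with CYTO cows, against 456, 213, 198, 316 and 289 CPM in the inflamed healthy cows, with s2202 highest and s1239 lowest. CCL20, of the interleukin 17 axis, was at 248, 0.158, 0.873 and 4.202 CPM in the PVD with CYTO cows, against 0.1703, 0.134, 1.34, 1.46 and 0.2397 CPM in the inflamed healthy cows, with almost all of it in s1239. IL17RA, a receptor chain of that axis, was at 21.9 to 46.9 CPM in PVD with CYTO cows and 7.21 to 46.6 CPM in inflamed healthy cows.

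For inflammatory cytokines and growth factors the outcome turned on s1239. Of 14 genes 13 were positive, with a median of 1.06 that became 0.24 without that cow. OSM, oncostatin M of the interleukin 6 family, was at 2109, 6.83, 19.1 and 14.9 CPM in the PVD with CYTO cows, against 4.68, 36.6, 1.01, 4.71 and 1.34 CPM in the inflamed healthy cows. CSF1, the growth factor of macrophages, was at 1181, 74.2, 262 and 56.6 CPM in the PVD with CYTO cows, against 62.99, 421, 33.5, 79.9 and 72.3 CPM in the inflamed healthy cows. In both genes the other 3 PVD with CYTO cows lay inside the range of the healthy cows. The lists of NF-kB feedback genes (18 of 19 positive), immediate early genes (17 of 19) and inhibitory signals (6 of 6) behaved likewise, with medians of 0.96, 1.08 and 1.22 that became 0.26, 0.48 and 0.33 without s1239. NFKBIA, the inhibitor that NF-kB induces against itself, was at 4955, 100.4, 253 and 166 CPM in the PVD with CYTO cows, against 89.3, 249, 108, 96.1 and 101 CPM in the inflamed healthy cows. ZFP36, which destabilises cytokine messenger RNA, was at 8814, 123, 201 and 129 CPM in the PVD with CYTO cows, against 89.9, 271, 41.7, 89.7 and 42.7 CPM in the inflamed healthy cows. s1239 was more than 10 times above every other cow in both. CD274, the inhibitory ligand PD-L1, was at 1464, 4.93, 75.02 and 25.7 CPM in the PVD with CYTO cows, against 9.79, 62.1, 9.06, 14.5 and 2.49 CPM in the inflamed healthy cows, and ANXA1, annexin A1, which limits neutrophil influx, was at 2115, 629, 3149 and 1181 CPM in the PVD with CYTO cows, against 939, 2606, 1455, 979 and 604 CPM in the inflamed healthy cows. EGR1, an immediate early transcription factor, was at 1308, 214, 128 and 171 CPM in the PVD with CYTO cows, against 132, 226, 56.3, 165 and 88.3 CPM in the inflamed healthy cows. s1239 was the highest of the 9 cows for CD274 and EGR1, but s2161 was for ANXA1.

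PTX3, a soluble pattern receptor produced during inflammation, was the only member of the NF-kB feedback list with an unadjusted p under 0.05 both with and without s1239. It was at 4904, 71.4, 32.02 and 47.9 CPM in the PVD with CYTO cows, against 37.2, 6.79, 8.05, 32.000 and 5.42 CPM in the inflamed healthy cows. Every PVD with CYTO cow other than s2161 was above all 5 healthy cows, and s2161 was level with s2053 and below s1066. The log2 fold change was 3.45 (standard error 1.25, unadjusted p = 0.0178) and without s1239 1.79 (standard error 0.65, unadjusted p = 0.0233). Neither passed the adjustment over all genes in limma (adjusted p = 0.697 and 1). In healthy cows without inflammation PTX3 was at 0.863 to 20.1 CPM.

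Interferon-stimulated genes were positive in 19 of 20 with all cows and in 15 of 20 without s1239, with medians of 0.96 and 0.29. IRF1, a transcription factor induced by interferon gamma, was at 2681, 56.7, 47.2 and 98.8 CPM in the PVD with CYTO cows, against 48.5, 82.3, 71.2, 129 and 90.4 CPM in the inflamed healthy cows. IFI6, which was chosen after its values were seen, ran the other way, at 66.8, 59.8, 118 and 88.8 CPM in the PVD with CYTO cows, against 139.99, 314, 92.2, 139 and 349 CPM in the inflamed healthy cows, with a log2 fold change of -1.16 (unadjusted p = 0.0204) and -1.07 without s1239.

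Levels of macrophage transcripts overlapped between the 2 groups. Of 16 genes 9 were positive with all cows, where 20.5% of all genes were, and 15 without s1239, where 39.3% were, none with an unadjusted p under 0.05. The medians were 0.07 and 0.27, and with TMM factors they were 0.43 and 0.35. CD14, the lipopolysaccharide co-receptor, was at 1873, 1074, 1568 and 1056 CPM in the PVD with CYTO cows, against 779, 1719.97, 1087, 932 and 1089.7 CPM in the inflamed healthy cows. CD68, a lysosomal glycoprotein of macrophages, was at 677, 572, 2228 and 799.6 CPM in the PVD with CYTO cows, against 776, 1598, 563, 779 and 726 CPM in the inflamed healthy cows. In both genes s2161 and s1570 were near the top. The sum of 7 macrophage markers was 3248 to 5923 CPM in PVD with CYTO cows and 2624 to 5450 CPM in inflamed healthy cows, above or at the upper end of the 200.2 to 2907 CPM of healthy cows without inflammation. TLR4, the receptor for lipopolysaccharide, was at 162 to 2591 CPM in PVD with CYTO cows and 138 to 534 CPM in inflamed healthy cows. Its list of pattern receptors had 8 of 14 positive, with a median of 0.08, or 0.44 with TMM factors. SPP1, osteopontin, which macrophages and glands secrete, covered an extreme range within both groups, at 105, 6216, 53658 and 6162 CPM in the PVD with CYTO cows, against 12850.3, 41528, 2199, 4026 and 399 CPM in the inflamed healthy cows.

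Lymphocyte lists overlapped between the groups. CD3E, the only T cell marker listed and named for that reason, was at 6.39 to 30.2 CPM in PVD with CYTO cows and 7.15 to 27.3 CPM in inflamed healthy cows, and 4 of 10 genes of T and NK cells were positive (7 without s1239), with a median of -0.07, or 0.26 with TMM factors. CD69, an early activation marker of leukocytes, was at 2644, 1.74, 26.5 and 6.701 CPM in the PVD with CYTO cows, against 2.001, 23.5, 4.86, 2.33 and 0.575 CPM in the inflamed healthy cows, again with nearly all of it in s1239. IL7R, the receptor of interleukin 7, was at 33.1, 43.8, 465 and 90.5 CPM in the PVD with CYTO cows, against 64.4, 249, 21.6, 66.003 and 7.43 CPM in the inflamed healthy cows. PRDM1, a regulator of plasma cells, was at 211 to 611 CPM in PVD with CYTO cows and 239 to 429 CPM in inflamed healthy cows, and CR2, a complement receptor of B cells, at 14.5 to 199 CPM in PVD with CYTO cows and 9.15 to 236 CPM in inflamed healthy cows. All 9 genes of antigen presentation were positive with all cows, and 5 of 9 without s1239; B2M, the light chain of class I molecules, was at 1011 to 5111 CPM in PVD with CYTO cows and 918 to 3823 CPM in inflamed healthy cows, and CTSS, a protease of antigen processing, at 379 to 2634 CPM in PVD with CYTO cows and 337 to 1689 CPM in inflamed healthy cows. Of 14 adhesion genes 12 were positive with and 12 without s1239 (medians 0.80 and 0.57). CD44, a hyaluronan receptor, was at 1306, 286, 2982 and 489 CPM in the PVD with CYTO cows, against 441, 2049, 223, 395 and 99.6 CPM in the inflamed healthy cows, again highest in s2161, s1570 and s1239, and ITGAM, a chain of the complement receptor integrin, at 125.9 to 730.00 CPM in PVD with CYTO cows and 144 to 462 CPM in inflamed healthy cows. Complement genes were divided, 10 of 17 positive with all cows and 8 of 17 without s1239 (medians 0.09 and -0.05, and 0.45 with TMM factors), with C3, the central component, at 507 to 1692 CPM in PVD with CYTO cows and 349.8 to 2882 CPM in inflamed healthy cows, and C1S, a protease of the classical pathway, at 101 to 1058 CPM in PVD with CYTO cows and 301 to 1514 CPM in inflamed healthy cows.

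Transcripts for glycolysis and for the response to hypoxia were mostly of higher mean in PVD with CYTO cows, both with and without s1239. Of 26 genes 21 were positive with all cows, where 20.5% of all genes were, and 24 without s1239, where 39.3% were. The medians were 0.58 and 0.62 in CPM, and with TMM factors they were 0.94 and 0.70. ENO1, enolase, was at 1761, 1667, 2802 and 1519 CPM in the PVD with CYTO cows, against 1779, 3699, 577, 1588 and 696 CPM in the inflamed healthy cows. PKM, pyruvate kinase, was at 2160.9, 1602, 2329.9 and 1438 CPM in the PVD with CYTO cows, against 1604, 2529.8, 657, 1426 and 678 CPM in the inflamed healthy cows. The PVD with CYTO cows were all above s1831 and s2392, and s1570 was the highest of the 9. Chosen after their values were seen, BNIP3, a hypoxia-induced regulator of mitophagy, was at 389, 244, 697 and 209 CPM in the PVD with CYTO cows, against 287, 562, 31.6, 165 and 40.3 CPM in the inflamed healthy cows, and DDIT4, an inhibitor of mTOR, at 2302, 178, 455 and 234 CPM in the PVD with CYTO cows, against 164, 400.4, 98.3, 93.6 and 58.2 CPM in the inflamed healthy cows. The log2 fold changes without s1239 were 1.35 for BNIP3 and 1.04 for DDIT4. The list median without s2161 was 0.26, and without s1570 it was 0.89; the mean level of the list ran from 7.48 to 8.40 on the log2 scale in PVD with CYTO cows and from 6.22 to 8.50 in inflamed healthy cows, so that the groups overlapped.

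**Figure D3:**
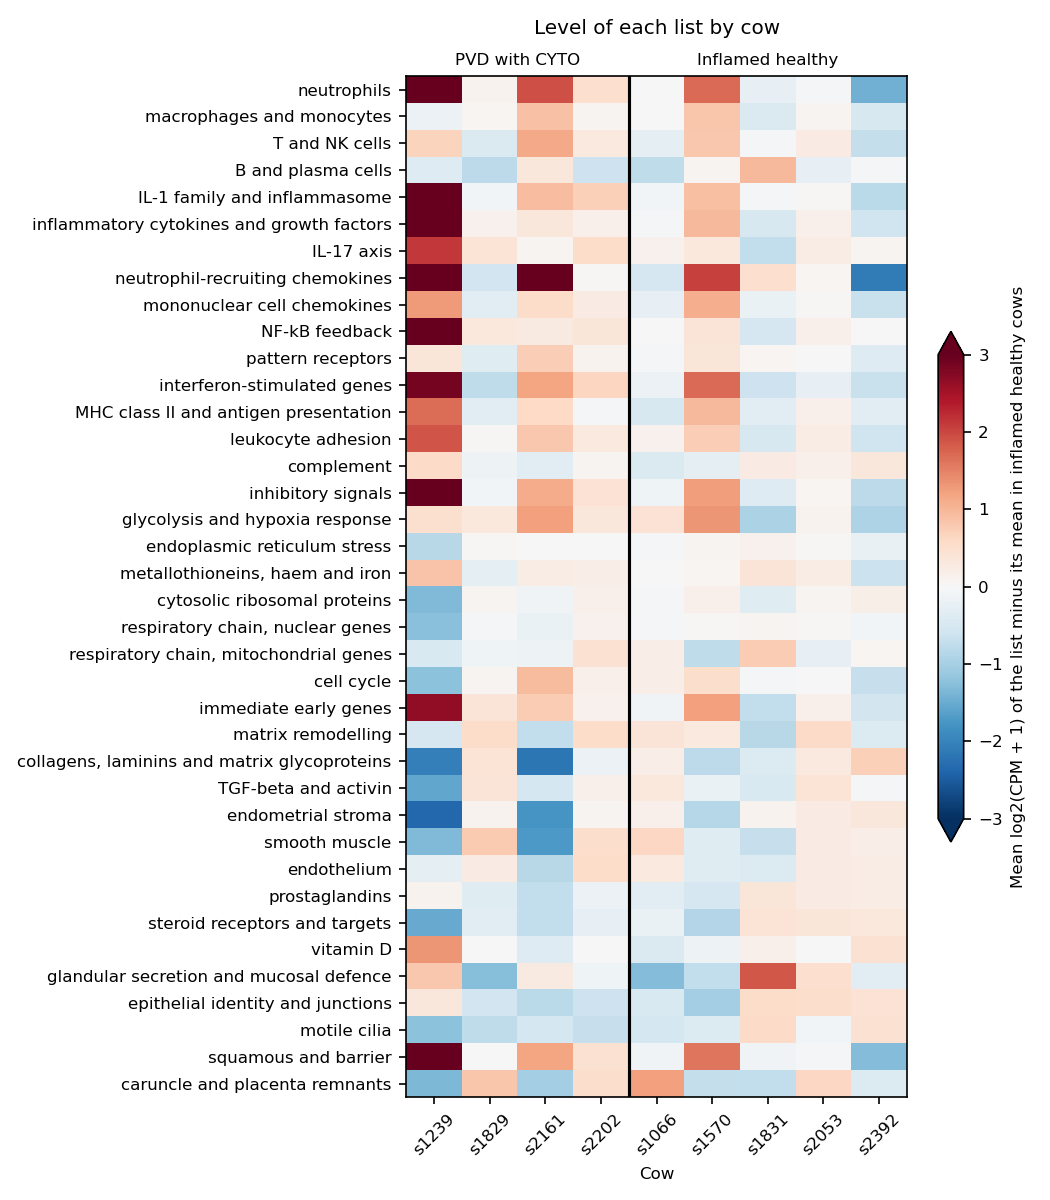
Mean log2(CPM + 1) of the genes of each list by cow, less the mean of that list over the 5 inflamed healthy cows; red is higher and blue lower, on a scale limited to 3 in either direction. The 4 PVD with CYTO cows are on the left. In s1239, s2161 and the inflamed healthy cow s1570 the neutrophil, interleukin 1 and interferon lists are high and the collagen and stroma lists low. Of these 3 cows s1239 is below the healthy mean for the macrophage list, and s2161 and s1570 are below it for complement. All levels are unscaled CPM, and the TMM factor of s1239 is 0.484, against 0.925 to 1.17 for the other cows.

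Connective tissue transcripts had lower means in PVD with CYTO cows. Of 32 collagens, laminins and matrix glycoproteins 31 were negative with all cows, where 79.5% of all genes were, and 28 without s1239, where 60.7% were. The medians were -1.11 and -0.71, and the median with TMM factors was -0.75; 0 were called and 3 had an unadjusted p under 0.05. DCN, decorin, a small proteoglycan that binds collagen, was at 1712, 4021, 843 and 4459.7 CPM in the PVD with CYTO cows, against 3989, 2169, 11804, 5468 and 8479 CPM in the inflamed healthy cows. s1239 and s2161 were below all healthy cows, and s1829 and s2202 were level with s1066. FN1, fibronectin, was far lower in s1239 than in any other cow, at 718, 9788, 5627 and 10060.1 CPM in the PVD with CYTO cows, against 8693, 7663, 5808, 7979 and 8308 CPM in the inflamed healthy cows, and its log2 fold change of -0.77 turned to 0.11 without that cow. Chosen after their values were seen, LAMA2, the laminin chain of mesenchymal basement membranes, was at 13.3, 111, 6.47 and 88.4 CPM in the PVD with CYTO cows, against 85.04, 32.4, 305, 182 and 354 CPM in the inflamed healthy cows, and COL1A2, a chain of type I collagen, at 1617, 1441, 154 and 871 CPM in the PVD with CYTO cows, against 995, 636, 5734, 3107 and 9189.9 CPM in the inflamed healthy cows. Their log2 fold changes without s1239 were -1.75 and -2.13. The mean level of the list was 6.60, 9.06, 6.48 and 8.47 on the log2 scale in the PVD with CYTO cows, against 8.85, 7.86, 8.23, 8.93 and 9.36 in the inflamed healthy cows, with s1239 and s2161 low and s1829 among the highest. Leaving out s2161 brought the median to -0.67. The stromal marker sum given above includes COL1A2, so that it is not separate from these genes. It was lowest in s1239, at 4127 CPM, but alike in s2161 and s2202 (5974 and 5862 CPM), whose list levels differed. Its part in the result was not tested.

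The list of endometrial stroma had its lowest mean levels in s1239 and s2161 as well. Of its 19 genes 18 were negative, where 79.5% of all genes were, and 16 without s1239, where 60.7% were, with medians of -0.89 and -0.46, and -0.53 with TMM factors. VIM, the intermediate filament of mesenchymal cells and leukocytes, was at 835, 2792, 5456 and 2213 CPM in the PVD with CYTO cows, against 2948, 5614, 3585, 3281 and 5268 CPM in the inflamed healthy cows. It went against the list in s2161, which was second only to s1570. HOXA10 and HOXA11, transcription factors that pattern the uterus, and THY1, a surface protein of fibroblasts, had an unadjusted p under 0.05 and were chosen after their values were seen. HOXA10 was at 3.29, 32.2, 6.82 and 38.96 CPM in the PVD with CYTO cows, against 37.7, 15.9, 156, 58.4 and 106 CPM in the inflamed healthy cows. HOXA11 was at 1.77, 43.99, 5.36 and 45.4 CPM in the PVD with CYTO cows, against 47.8, 14.1, 99.5, 62.3 and 79.3 CPM in the inflamed healthy cows. THY1 was at 181, 189.5, 30.9 and 324 CPM in the PVD with CYTO cows, against 209, 128, 757, 661 and 1605 CPM in the inflamed healthy cows. For HOXA10 and HOXA11 s1239 and s2161 were the lowest, and for THY1 s2161 and the healthy cow s1570 were. The fold changes kept their sign without s1239 (-1.41, -1.13 and -1.89), but no gene of the list then had an unadjusted p under 0.05 in limma. Among steroid receptors and their targets 9 of 11 were negative with all cows and 6 of 11 without s1239, near the shares of all genes just given (medians -0.67 and -0.22, and -0.32 with TMM factors). OXTR, the oxytocin receptor, was at 89.3, 35.3, 33.8 and 43.95 CPM in the PVD with CYTO cows, against 55.6, 14.5, 208, 146 and 237 CPM in the inflamed healthy cows, with s1239 the highest of its group, and STC1, stanniocalcin, at 17.1 to 313 CPM in PVD with CYTO cows and 51.4 to 321 CPM in inflamed healthy cows. ESR1, the oestrogen receptor alpha, chosen after its values were seen, was at 8.698, 21.8, 9.64 and 25.1 CPM in the PVD with CYTO cows, against 23.4, 7.12, 95.4, 70.4 and 113 CPM in the inflamed healthy cows.

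The list of matrix remodelling, which holds matrix-degrading enzymes and also the inhibitor TIMP2, did not move as a body. Of 21 genes 13 were negative and 8 positive, with a median of -0.35, close to that of all genes (0.01 with TMM factors), and 0.01 without s1239. MMP2, a gelatinase of fibroblasts, was at 1006, 7267, 636 and 4615 CPM in the PVD with CYTO cows, against 6005, 2332, 2854, 5372 and 6824 CPM in the inflamed healthy cows. MMP14, which activates MMP2 at the cell surface, was at 278, 7044, 1368 and 4042 CPM in the PVD with CYTO cows, against 5015, 2569.9, 989, 4339 and 2243 CPM in the inflamed healthy cows. Among the PVD with CYTO cows both were high in s1829 and s2202 and low in s1239 and s2161. In smooth muscle genes, CALD1, caldesmon, was at 40.4 to 549 CPM in PVD with CYTO cows and 155 to 657 CPM in inflamed healthy cows and ACTA2, smooth muscle actin, at 28.6 to 293 CPM in PVD with CYTO cows and 78.5 to 237 CPM in inflamed healthy cows; 8 of 11 were negative, near the 79.5% of all genes. Endothelial genes were divided, 4 of 9 positive (median -0.15, or 0.16 with TMM factors), with VWF, von Willebrand factor, at 69.1 to 114 CPM in PVD with CYTO cows and 18.5 to 111 CPM in inflamed healthy cows, and FLT1, a receptor for VEGF also found on monocytes, at 17.7 to 519 CPM in PVD with CYTO cows and 16.3 to 419 CPM in inflamed healthy cows. TGFBI, a matrix protein induced by TGF-beta, was at 367 to 2242 CPM in PVD with CYTO cows and 908 to 4259 CPM in inflamed healthy cows, TGFBR2, a TGF-beta receptor, was at 96.2 to 369 CPM in PVD with CYTO cows and 234 to 542 CPM in inflamed healthy cows, and 13 of 16 genes of that pathway were negative with all cows, also near that share, but 7 of 16 without s1239.

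**Figure D4:**
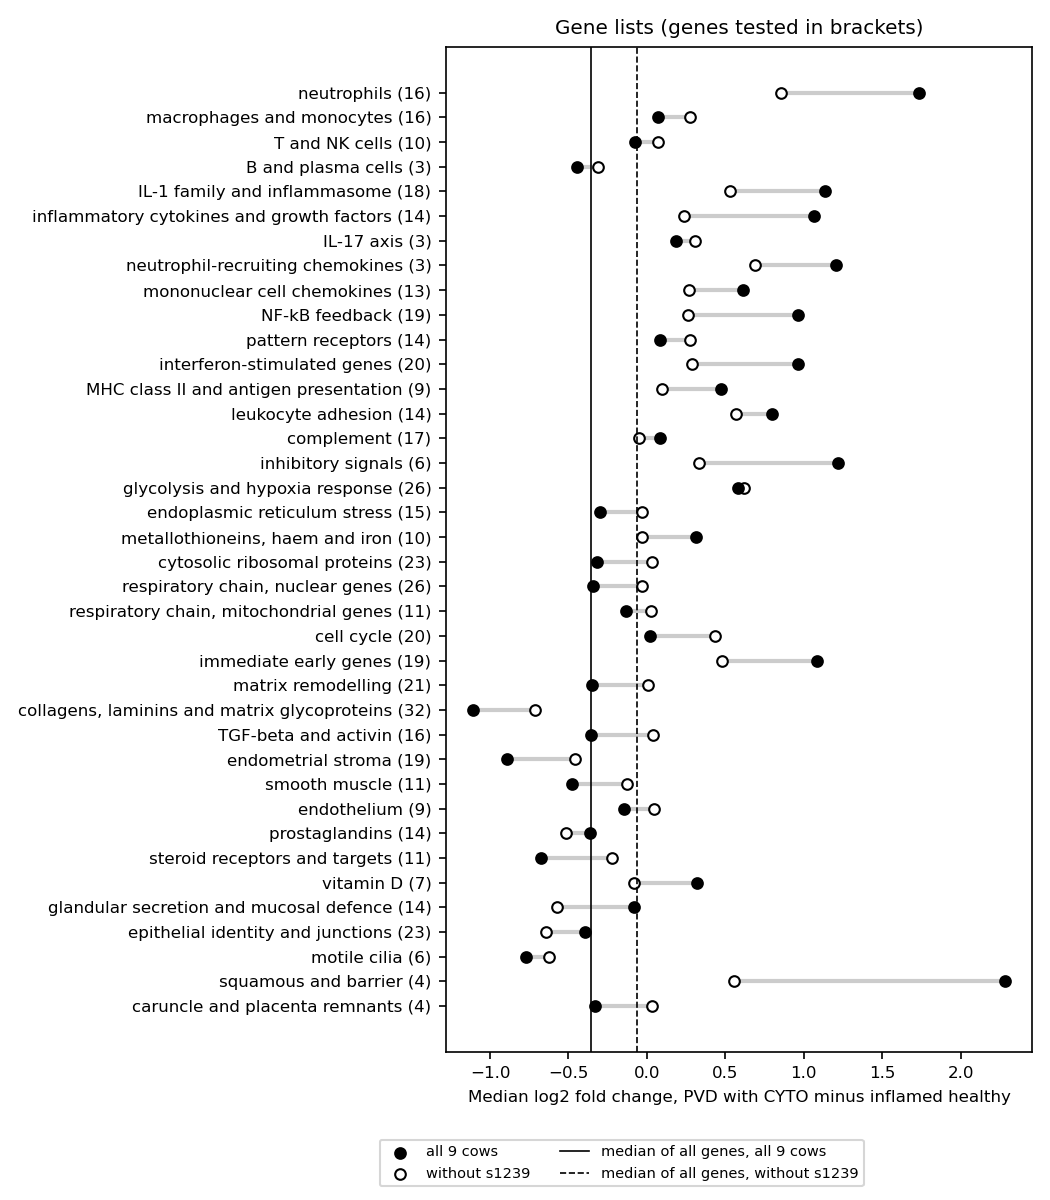
Median log2 fold change of each list, PVD with CYTO minus inflamed healthy, with all 9 cows (filled) and without s1239 (open), with the number of genes tested in brackets; vertical lines are the medians of all genes, -0.36 with all cows (solid) and -0.06 without s1239 (dashed). In these unscaled CPM values neutrophil, interleukin 1, NF-kB and squamous lists move left when s1239 is left out. The interleukin 17, pattern receptor and macrophage lists move right here. With TMM factors their medians are instead lower without s1239, at 0.38, 0.35 and 0.35 against 0.53, 0.44 and 0.43. Glycolysis is at 0.58 and 0.62, and collagens, stroma, epithelium and cilia lie left of the lines under both.

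Epithelial transcripts had lower means in PVD with CYTO cows once s1239 was left out. All 23 tested genes of epithelial identity and junctions were then negative, where 60.7% of all genes were, with a median of -0.64; with all cows 22 of 23 were negative and the median was -0.39, close to the shift of all genes, and -0.03 with TMM factors. KRT8, a keratin of simple epithelium, was at 318, 116, 92.4 and 136 CPM in the PVD with CYTO cows, against 167, 153, 228, 255 and 181 CPM in the inflamed healthy cows. s1829, s2161 and s2202 were below every healthy cow, and s1239 was above every one. Its log2 fold change without s1239 was -0.76 (standard error 0.23, unadjusted p = 0.01, adjusted p = 1 in limma). TJP1, a scaffold of tight junctions, was at 34.7, 184, 38.9 and 173 CPM in the PVD with CYTO cows, against 166, 65.6, 309.9, 287 and 507 CPM in the inflamed healthy cows. LAMB3, a chain of the laminin that anchors epithelium, was at 97.8, 34.2, 25.2 and 32.8 CPM in the PVD with CYTO cows, against 54.2, 60.6, 40.1, 66.1 and 63.8 CPM in the inflamed healthy cows, and F11R, a junctional adhesion molecule, at 111, 61.5, 84.9 and 74.8 CPM in the PVD with CYTO cows, against 112, 143, 167, 123 and 94.9 CPM in the inflamed healthy cows. Both had the same arrangement as KRT8, with the 3 cows below all healthy cows and s1239 inside the healthy range for F11R and above it for LAMB3. RBP4, a carrier of retinol, was at 56.2, 37.8, 29.99 and 46.9 CPM in the PVD with CYTO cows, against 53.8, 102, 139, 91.7 and 234 CPM in the inflamed healthy cows. Its log2 fold change was -1.39 with s1239 and -1.53 without. The summed epithelial markers were 987, 320, 358 and 433 CPM in the PVD with CYTO cows, against 466, 386, 1097, 821 and 645 CPM in the inflamed healthy cows; their part in these differences was not tested.

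Cilia and gland transcripts also had lower means without s1239. Of 28 genes of motile cilia sought, 6 were tested. All 6 were negative with all cows, where 79.5% of all genes were, and without s1239, where 60.7% were (medians -0.77 and -0.62). With so few genes this count is near those shares. TPPP3, a tubulin-binding protein of ciliated cells, was at 6.06, 8.01, 13.9 and 6.98 CPM in the PVD with CYTO cows, against 10.3, 34.5, 25.7, 26.96 and 70.7 CPM in the inflamed healthy cows. Only the inflamed healthy cow s1066 was within the range of the PVD with CYTO cows, and the unadjusted p was 0.00609, or 0.0191 without s1239. CFAP126, a ciliary protein, was at 2.86 to 5.91 CPM in PVD with CYTO cows and 5.04 to 8.92 CPM in inflamed healthy cows. Of 14 gland and mucosal defence genes 6 were positive with all cows, where 20.5% of all genes were. Without s1239 3 were, where 39.3% of all genes were (medians -0.08 and -0.58, and 0.24 with TMM factors and all cows). LF, the symbol under which the tables list lactoferrin, was at 1142, 36.7, 163 and 75.5 CPM in the PVD with CYTO cows, against 41.5, 67.9, 1843, 462 and 324 CPM in the inflamed healthy cows. Levels in healthy cows without inflammation were 205 to 52269 CPM. Prostaglandin genes were negative in 11 of 14 with all cows, near the 79.5% of all genes, and in 11 of 14 without s1239, where 60.7% were (medians -0.36 and -0.51, and -0.04 and -0.45 with TMM factors). PTGS2, the inducible cyclooxygenase, was at 2334, 110.2, 57.1 and 401 CPM in the PVD with CYTO cows, against 72.95, 94.4, 2128, 234 and 701 CPM in the inflamed healthy cows, and PTGES3 at 153 to 489 CPM in PVD with CYTO cows and 231 to 537 CPM in inflamed healthy cows. S100G, a calcium-binding protein induced by vitamin D, was at 7.02 to 148 CPM in PVD with CYTO cows and 13.2 to 238 CPM in inflamed healthy cows.

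Squamous transcripts were abundant in s1239. Of 4 genes of that list 3 were positive with and without s1239 (medians 2.29 and 0.56). TGM3, a transglutaminase of cornified epithelium, was at 13128, 62.7, 166 and 116 CPM in the PVD with CYTO cows, against 33.4, 280.4, 18.5, 38.4 and 4.27 CPM in the inflamed healthy cows. Its log2 fold change of 3.44 (unadjusted p = 0.036) became 1.71 without s1239 (p = 0.14). SERPINB4, a serpin of squamous epithelium whose symbol was taken from the study for an identifier that has none in the tables, was at 4848, 1.93, 7.62 and 7.16 CPM in the PVD with CYTO cows, against 2.17, 14.04, 1.68, 0.758 and 0.144 CPM in the inflamed healthy cows. Here the other 3 cows were within the range of the healthy cows.

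**Figure D5:**
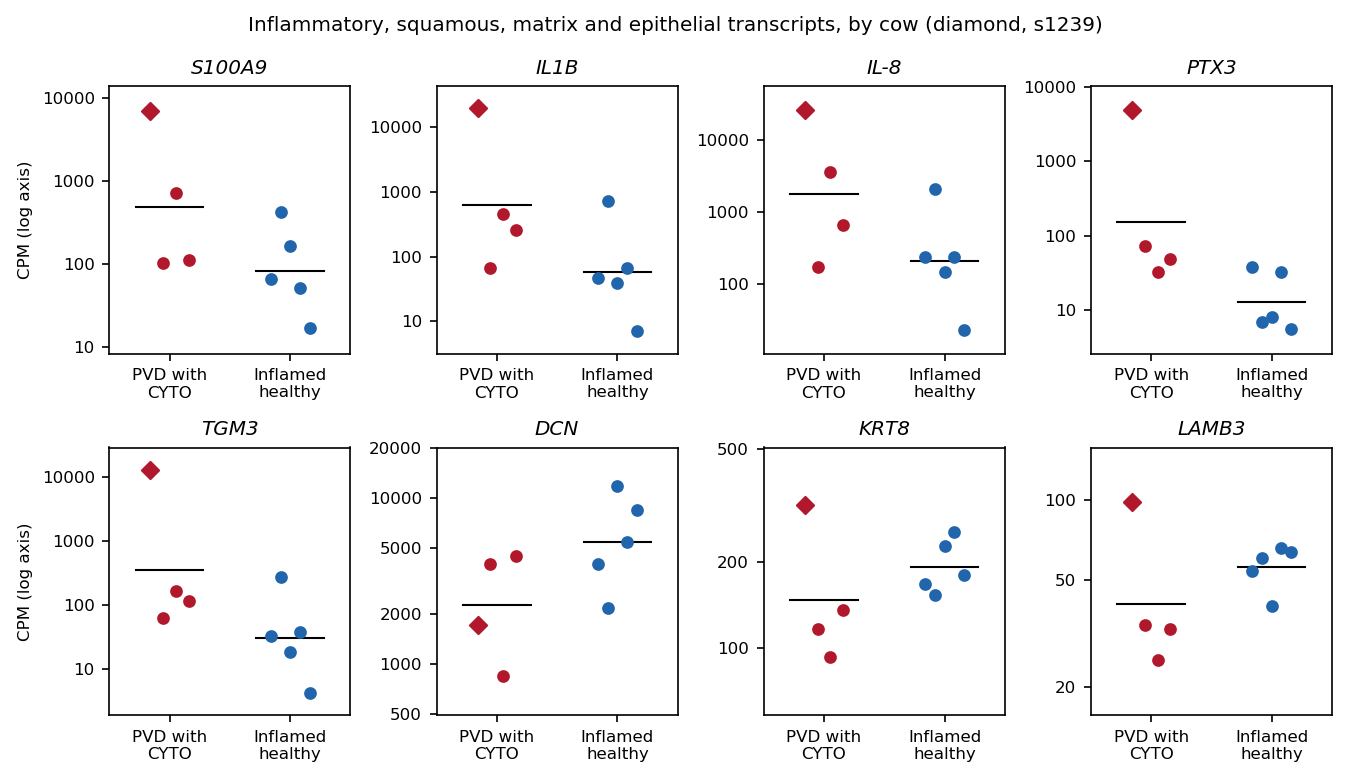
CPM by cow on log axes for 8 genes of the lists, PVD with CYTO on the left and inflamed healthy on the right of each panel; bars are geometric means and diamonds mark s1239. s1239 is the highest of the 9 cows for S100A9, IL1B, IL-8, PTX3, TGM3, KRT8 and LAMB3 and the other 3 cows are below all healthy cows for KRT8 and LAMB3.

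Ribosomal proteins and nuclear genes of the respiratory chain had medians near that of all genes. Of 23 ribosomal protein genes 22 were negative with all cows (median -0.32) and 8 without s1239 (median 0.03), and nuclear genes of the respiratory chain gave 25 of 26 and 16 of 26 (medians -0.34 and -0.03). RPLP0 was at 758 to 2486 CPM in PVD with CYTO cows and 1535 to 2630.1 CPM in inflamed healthy cows, ATP5A1, a subunit of ATP synthase, at 189.9 to 765 CPM in PVD with CYTO cows and 524 to 794 CPM in inflamed healthy cows, and ATP5B, another, at 205 to 669.8 CPM in PVD with CYTO cows and 506 to 793 CPM in inflamed healthy cows. With TMM factors the medians of both lists were positive, 0.04 and 0.01. The mitochondrially encoded genes COX1, at 10158 to 22067 CPM in PVD with CYTO cows and 11839 to 21274 CPM in inflamed healthy cows, and COX3, at 3189 to 6636 CPM in PVD with CYTO cows and 3138 to 7209 CPM in inflamed healthy cows, overlapped between groups, and the median of that list was -0.13, or 0.23 with TMM factors. The chaperones of the endoplasmic reticulum named here were lowest in s1239 (list median -0.30, or 0.06 with TMM factors and -0.03 without s1239). HSP90B1 was at 544, 1754, 2055 and 1867 CPM in the PVD with CYTO cows, against 1900.1, 2038, 2552, 2119 and 1618 CPM in the inflamed healthy cows, and CALR, calreticulin, was at 677 to 1717 CPM in PVD with CYTO cows and 1500.2 to 1787 CPM in inflamed healthy cows. Cell cycle genes had 10 of 20 positive with all cows, where 20.5% of all genes were, and 17 of 20 without s1239, where 39.3% were. Their medians were 0.02 and 0.43, and -0.42 without s2161, when that of all genes was -0.38. MCM7, a replication helicase subunit, was at 22.2 to 81.4 CPM in PVD with CYTO cows and 52.001 to 89.9 CPM in inflamed healthy cows and PCNA at 50.6 to 64.05 CPM in PVD with CYTO cows and 43.2 to 73.4 CPM in inflamed healthy cows. For iron, FTH1, the ferritin heavy chain, was at 6268, 5044, 15589 and 6713 CPM in the PVD with CYTO cows, against 5798, 9565, 5057, 5685 and 3709 CPM in the inflamed healthy cows, highest in s2161, and SLC40A1, the iron exporter ferroportin, at 179, 1094, 351 and 1157 CPM in the PVD with CYTO cows, against 1548, 350.2, 1757, 1389 and 1366 CPM in the inflamed healthy cows.

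Without s1239, 13 genes (0.125%) were wholly higher in the 3 PVD with CYTO cows left. The probability under a random split, on either side, is 0.0357. CAPN3 and 7 others were those named by rule, and MCEMP1, ENSBTAG00000039995 and SDHB were also among the 13. None of them was called without s1239. SATB1, a chromatin organiser of T cells and other lineages, was at 7.18, 24.5, 23.7 and 28.7 CPM in the PVD with CYTO cows, against 20.5, 12.2, 14.8, 14.7 and 9.35 CPM in the inflamed healthy cows. PDE9A, a phosphodiesterase that breaks down cyclic GMP, was at 5.67, 37.5, 47.8 and 39.1 CPM in the PVD with CYTO cows, against 30.3, 29.9, 21.3, 24.8 and 26.5 CPM in the inflamed healthy cows. S1PR3, a receptor for sphingosine 1-phosphate, was at 4.24, 53.1, 124 and 50.5 CPM in the PVD with CYTO cows, against 45.7, 44.6, 12.4, 39.04 and 13.5 CPM in the inflamed healthy cows. For all 3 genes s1239 was lower than every other cow, so that the log2 fold changes of 0.84, 0.63 and 1.34 without s1239 came to 0.41, -0.04 and 0.41 with it. CYP27A1, a mitochondrial sterol hydroxylase, was at 31.3, 315, 397 and 319 CPM in the PVD with CYTO cows, against 269.7, 205, 155, 314 and 261 CPM in the inflamed healthy cows. CS, citrate synthase, was at 51.2, 205, 210.4 and 202 CPM in the PVD with CYTO cows, against 189, 171, 168, 155 and 143 CPM in the inflamed healthy cows, and its range among the 3 cows was 202 to 210.4 CPM. RNF130, a ubiquitin ligase, was at 45.9, 229, 277 and 295 CPM in the PVD with CYTO cows, against 223, 210.5, 206, 205 and 168 CPM in the inflamed healthy cows, and CRLF3, a cytokine receptor-like factor, at 34.9, 47.03, 46.7 and 47.7 CPM in the PVD with CYTO cows, against 43.6, 30.8, 44.5, 41.6 and 25.8 CPM in the inflamed healthy cows. The log2 fold changes of CYP27A1, CS and RNF130 were 0.54, 0.32 and 0.40 without s1239, and -0.31, -0.18 and -0.23 with it. SDHB, a subunit of succinate dehydrogenase chosen after its values were seen, had the same arrangement, at 34.7, 181, 196 and 199 CPM in the PVD with CYTO cows, against 169.6, 175, 114, 160.3 and 169.9 CPM in the inflamed healthy cows.

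Genes sought as remnants of caruncle and placenta overlapped between the groups. MEST, an imprinted gene expressed in placenta, was at 0.822, 31.5, 4.84 and 30.8 CPM in the PVD with CYTO cows, against 28.8, 8.13, 11.6, 22.3 and 15.8 CPM in the inflamed healthy cows, and the gene listed as PAG1 was at 3.98 to 28.2 CPM in PVD with CYTO cows and 2.301 to 49.5 CPM in inflamed healthy cows. KIT, the stem cell factor receptor of mast cells, was at 1.69 to 28.9 CPM in PVD with CYTO cows and 11.8 to 30.3 CPM in inflamed healthy cows, and GATA2, a transcription factor of the same cells, at 2.42 to 15.5 CPM in PVD with CYTO cows and 7.26 to 19.3 CPM in inflamed healthy cows. None of the 39 lists with a tested gene had mean levels that separated the 4 cows from the 5, and none did without s1239.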

How the data were processed

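Cytobrush cells were collected at 7 DPP, and libraries were made with a stranded mRNA kit and sequenced as single reads of 100 bp. The authors trimmed reads with BBDuk, aligned them with STAR to UMD3.1, allowing 2 mismatches and unique hits, and assigned them to Ensembl genes by featureCounts. The submitters' processing notes name R 3.3.2 and edgeR 3.18.0, and the methods name DESeq2. The deposited values are CPM per library over genes above 1 CPM in at least 5 libraries, which can leave out genes found in a few cows only. The tables also hold the authors' own fold changes and p-values for their comparisons, which were not used. Of the 9 tables deposited, values came from a pair that holds these 30 libraries, and 7 were not used. The 10476 genes listed include 1178 without a symbol, 14 whose symbol had become a date and 6 that share a symbol. Symbols came from the tables and, for 5 genes, from the study. No sequence or coordinate is given, since no genome of the build used was analysed here.

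Each CPM was a whole multiple of the value of 1 read (100% of 314280 values within 0.01 of a read), so that reads and library totals were recovered for the alternatives below. In 13 of 30 libraries, 2 of them among the 9 compared, fewer than 100 values were at 20 reads or fewer, so that this rests on few low values there.

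Genes with 1 CPM or more in at least 4 of the 9 libraries were tested with limma 3.58.1 in R 4.3.3 (lmFit and eBayes with a trend, two-sided) on log2(CPM + 1), and p-values were adjusted by Benjamini-Hochberg over all genes tested. A gene was called where the adjusted p was below 0.05 and the difference exceeded 1 on the log2 scale. Fold changes are PVD with CYTO minus inflamed healthy on the log2(CPM + 1) scale, which understates changes of low genes. Single values per cow were tested by exact permutation (scipy 1.17.1, python 3.11.15). Each cow is a replicate, and libraries of a group differed far beyond counting noise. Alternatives were another pseudocount, another filter, TMM and RLE factors, edgeR 4.0.16 and DESeq2 1.42.0 on recovered reads, library weights, a spread from all 30 libraries, no fold threshold and each library left out. The unweighted limma fit, edgeR and DESeq2 were also run on simulated reads with known fold changes. That simulation held no outlying library like s1239. The fits with weights, with TMM or RLE factors and with the spread of all 30 libraries were not simulated. A separate fit left out s1239. Gene lists were described by counts and medians, with no test.

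The members and lists were chosen with earlier results of these data known. Named genes were, per direction, up to 15 with a symbol and the smallest p among those whose groups did not overlap and with a mean of 5 CPM or more in either group, up to 8 by the same rule without s1239, the 2 most abundant genes of each list, and from each list the non-overlapping gene with the largest fold. A few genes that met it are not reported here. Genes outside this rule are said to have been chosen after their values were seen.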

Additional observations from a re-analysis of the deposited data

Results flagged for a closer look

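Of 302 values examined within a group (38 lists, 110 genes and 3 library measures, each in both groups), 29 had a cow at 1 end that lay far from the rest of its group by Dixon's criterion. Cow s1239 was that cow in 19 of them. The criterion flags about 1 in 20 of values picked without regard to their spread. Some genes here were named because their groups did not overlap once s1239 was left out. The number flagged therefore cannot be set against that rate. All values are mean log2(CPM + 1) for lists and log2(CPM + 1) for genes.

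s1239 was above the other PVD with CYTO cows in inflammatory cytokines and growth factors (6.65, against 3.26 to 3.47) and NF-kB feedback genes (8.06, against 5.25 to 5.34). Among genes it was above them in OSM (11.04, others up to 4.33), PTX3 (12.26, others up to 6.18), SERPINB4 (12.24, others up to 3.11) and ZFP36 (13.11, others up to 7.66). It was below them in endoplasmic reticulum stress genes (7.29, against 8.11 to 8.15) and cytosolic ribosomal proteins (8.07, against 9.29 to 9.54). Genes in which it was below the other 3 were ATP5B (7.69), CRLF3 (5.17), CS (5.70), CYP27A1 (5.01), HSP90B1 (9.09), PDE9A (2.74), QRSL1 (2.70), RNF130 (5.55), RPLP0 (9.57), SATB1 (3.03) and SDHB (5.16). The TMM factor of 0.484 of this library moves with these low values, and its part in them was not tested.

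s2161 was above the other PVD with CYTO cows in glycolysis and hypoxia response genes (8.40, against 7.48 to 7.64). Among inflamed healthy cows, s1570 was above the rest on the first principal component (23.8, against -49.2 to -30.5), in interferon-stimulated genes (7.17, against 4.80 to 5.28) and in NFKBIA (7.96, others up to 6.77). It was below the rest in endometrial stroma (5.96, against 6.92 to 7.16) and in SLC40A1 (8.46, against 10.42 to 10.78). s1831 was below the rest in the interleukin 17 axis (2.30, against 3.11 to 3.35) and SDHB (6.85), and above it in QRSL1 (5.31) and S100G (7.90).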

How the results depend on the processing

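No paired analysis was possible because each cow gave a single library in a single group. The number of genes called was 0 with all 9 cows under limma in every alternative except library quality weights (1), whose estimation stopped before full convergence, and it was 2 with DESeq2, both with all 9 cows and without s1239. SFRP4 was called by DESeq2 (-1.99, and -2.22 without s1239) and with weights (-2.08), and TMEM26 by DESeq2 without s1239 (-1.26). The 38 genes higher at an unadjusted p under 0.05 became 422 with DESeq2, 500 with edgeR and 209 with weights, and 10 to 226 when each cow was left out in turn. The 132 lower genes became 46 with RLE and 53 with TMM factors, 885 with weights and 660 with the spread of all 30 libraries, and 45 to 604 when each cow was left out. Without s1239, 18 higher genes became 53 with DESeq2 and 30 with edgeR, and 69 lower genes became 184 with DESeq2. The 3 non-overlapping higher genes became 0 under a filter of 5 CPM, 12 with RLE factors and 3 to 77 with each cow left out. The 24 lower genes became 9 with RLE factors and 30 to 494 with each cow left out. Leaving out a cow could only keep or raise both counts. The log2 fold changes of CS (-0.18), CYP27A1 (-0.31), PDE9A (-0.039) and RNF130 (-0.23) changed sign when s1239 was included. Of 722 list medians, 705 stayed within 1 SD of their value. That SD was the larger of the SDs between cows of the list level in either group, and s1239 widens it. For inflammatory cytokines it was 1.66, so that a median of 1.06 that became 0.24 without s1239 lay within it. This count therefore does not show that lists were independent of s1239. Of 417 values of genes named for their p, 409 kept direction and side of the threshold, 4 were called and 4 changed sign. With edgeR and DESeq2 on reads, medians reached 4.92 and 4.997 for squamous genes, 3.61 and 3.69 for inhibitory signals, 3.24 and 3.32 for neutrophils, 2.53 and 2.61 for the interleukin 1 family, 2.32 and 2.40 for NF-kB feedback, 2.21 and 2.30 for cytokines, 1.98 and 2.05 for interferon-stimulated genes and 1.98 and 2.05 for immediate early genes, each over 1.5 times the value in limma. The cause of these shifts was not tested. All were medians of the fit with all 9 cows. Without s1239 the edgeR log2 fold change of IL1B went from 5.90 to 0.58. That of OSM went from 6.86 to 0.49, and that of S100A9 from 4.77 to 1.21. With 4 and 5 cows, and with s1239 far from its group, differences smaller than the spread between cows were not detectable, and without RLE or TMM scaling most genes lean to the lower side.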
